A study of Canis lupus familiaris with 25 samples.

Results

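Collagen genes and the enzymes that modify and cross-link collagen were examined in dogs with mammary carcinoma. The group held every probe set annotated to a single gene whose symbol begins with COL, a number, A and a number, or is LOX, LOXL1 to LOXL4 or PLOD1 to PLOD3, together with SERPINH1. It comprised 111 of the 42924 non-control probe sets of the array and 43 of the 15115 genes named by a probe set of their own, namely 36 collagen genes and 7 genes for enzymes or the chaperone. A further probe set that names COL25A1 together with a second gene was left out. LOXL1 and PLOD2 had no probe set of their own, so neither gene is covered here.

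Expression had been measured on Affymetrix canine arrays in 13 primary mammary carcinomas that had spread to lymph nodes and in 12 samples of non-neoplastic mammary gland, from 14 dogs of several breeds aged 9 to 16 years. For 11 dogs both a carcinoma and a gland were hybridised, while dogs 1 and 9 contributed a carcinoma and dog 8 a gland. The HER-2 label was positive for 11 carcinomas and negative for 2, and the estrogen receptor label was negative for all 13. The labels state that the tissue was macrodissected and that included sections held 70% tumour or mammary epithelial cells, so each array measured epithelium together with the stroma that was left. In such bulk samples fewer cells of a type and less RNA per cell cannot be told apart. Each array is a separate tissue sample and the 11 pairs are 11 dogs, so the spread given is the spread between dogs.

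All values are log2 signals, and a difference is carcinoma minus gland of the same dog, given as the mean ± SD over 11 dogs. Array medians lay between 3.55 and 3.76, and signals below log2 4 are read here as dim. The luminal epithelial marker list was well above that level in every array of both groups, at 9.08 to 11.98 in the paired carcinomas and 10.88 to 12.94 in the paired glands. The glands of 6 dogs (dogs 7 and 10 to 14) carried a strong skeletal muscle signal, with a mean over the muscle genes of 8.94 to 10.41 against 2.99 to 4.44 in the other 19 arrays. For each gene that was called, and for several that were not, values are also given for dogs with and without that signal. Some fits also used the muscle level as a covariate. That level was high in glands only, so such a fit separates muscle from tissue poorly for any gene. A call lost in it cannot be read as particular to that gene.

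Collagens are secreted triple-helical proteins. The fibrillar types build the tensile fibrils of stroma, the type IV chains form the sheet of the basement membrane, and the FACIT types sit on the surface of fibrils and govern how they assemble. Inside the cell, lysyl hydroxylases (PLOD genes) modify lysines of the nascent chains and SERPINH1 (HSP47) escorts the folded trimer; outside it, lysyl oxidases (LOX and its relatives) oxidise lysines so that fibrils become cross-linked. In the mammary gland these proteins surround ducts and lobules, and the stroma of mammary tumours is often rich in them.

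Of the 28 member genes tested, 3 were called higher in the carcinomas and 3 lower. Of the 6 enzyme or chaperone genes tested, 3 rose in the carcinomas (LOXL2, PLOD1 and PLOD3) and none fell. Of the 22 collagen genes tested, none rose and 3 fell (COL14A1, COL16A1 and COL4A6). A gene was tested when a probe set of it was brighter than log2 4 in 6 or more of the 22 arrays of the pairs, and it was called at a Benjamini-Hochberg adjusted p below 0.05 in limma's paired fit. The background was large, since 18.4% of the 8885 genes tested were called higher and 11.1% lower. Against it, 10.7% of the 28 member genes were called in each direction, so the lower share was near that of all genes and the higher share below it. The members spread more between dogs (median SD 1.45, against 0.66 for all genes), so a gene that was not called may still have changed. The median difference was 0.89 for the enzymes and chaperone and -0.15 for the collagens, beside 0.10 for all genes tested. Whether the enzymes and the collagens differ as groups was not tested. In the 5 dogs whose glands lacked the muscle signal limma called 1 member gene higher, PLOD3, and 0 lower. Over all 21553 probe sets 2.66% were called in those 5 dogs, against 28.4% in all 11 pairs.

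**Figure D1:**
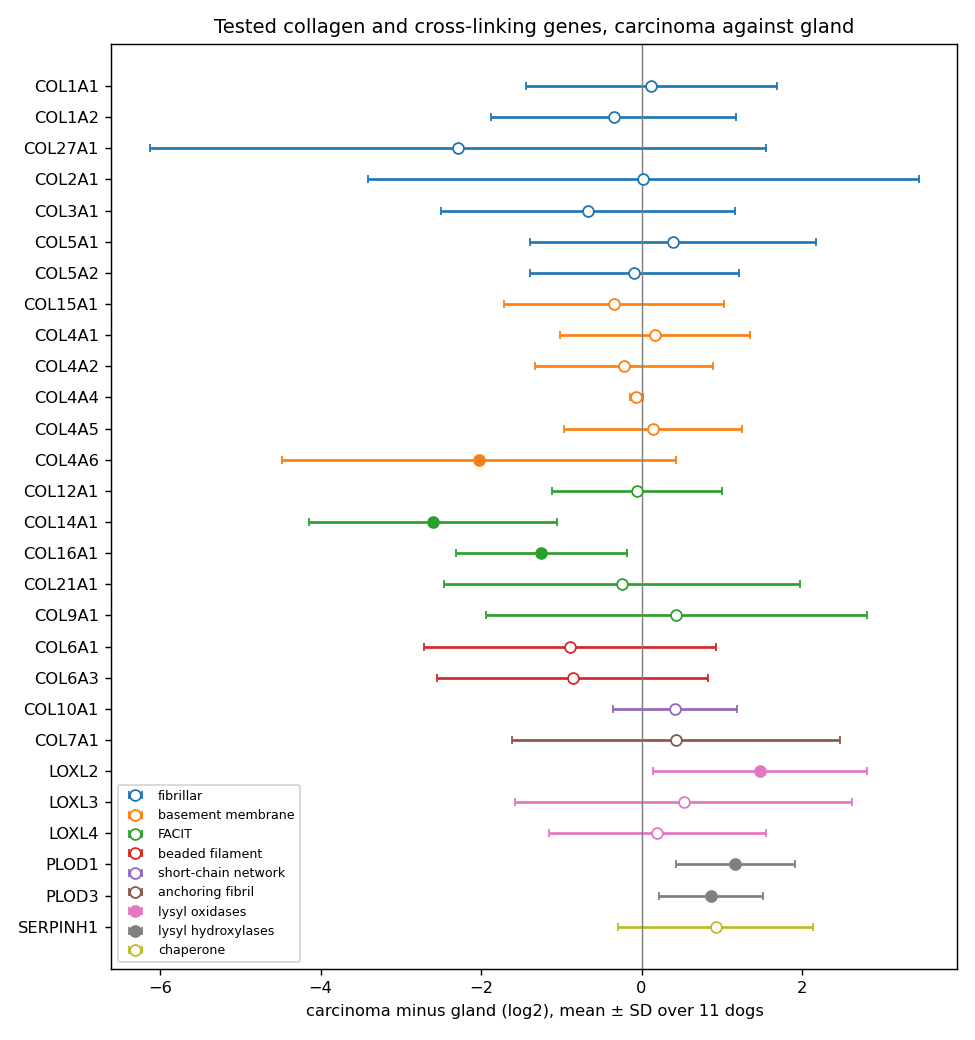
Carcinoma minus gland on the log2 scale (x axis) for each of the 28 tested member genes (y axis), with the point as the mean and the bar as ± SD over 11 dogs. Colour marks the class and a filled point a gene called in limma's paired fit; LOXL2, PLOD1 and PLOD3 are filled to the right of 0, COL14A1, COL16A1 and COL4A6 to the left, and most collagen bars span 0.

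The paired differences of the collagen genes varied widely between dogs. The SD over dogs of the paired difference had a median of 1.56 over the 22 collagens and 1.78 over the 7 fibrillar collagens, beside 0.66 over all genes tested. The median over the enzymes and chaperone was 1.28, so a wide spread was not particular to the collagens. In 21 of the 22 collagens the SD was above that general median, and the exception, COL4A4, stayed near the dim level in every array. The ranges of carcinomas and glands overlapped for each of the 28 genes. The share of all genes tested that overlap is not given here, so the overlap cannot be read as particular to the members.

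Among the fibrillar collagens none of the 7 genes tested was called, and their median difference was -0.09. COL1A1, a chain of type I collagen, the principal fibril protein of stroma, ranged in the carcinomas from 12.83 through a median of 14.64 to 15.80 and in the glands from 11.91 through 14.78 to 15.57. The groups covered nearly the same span. The difference averaged 0.12 ± 1.57 (limma adjusted p = 0.851), yet single dogs went from -2.66 in dog 7 to 2.73 in dog 10, a 42.0-fold range, and the carcinoma was the higher sample in 5 dogs and the lower in 6. Without dog 10 or dog 11 the mean turned negative, with -0.14 as the lowest value.

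COL1A2, the partner chain of type I collagen, read 11.58, 13.90 and 15.41 (lowest, median and highest) in the carcinomas and 12.26, 13.84 and 15.18 in the glands. Its difference was -0.35 ± 1.53 (limma adjusted p = 0.549). COL3A1, the type III chain that accompanies type I in pliable stroma, read 11.43, 14.19 and 15.73 in the carcinomas and 12.11, 14.72 and 15.88 in the glands, a difference of -0.67 ± 1.83 (limma adjusted p = 0.320). For both genes the carcinoma was higher in 5 dogs and lower in 6.

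The other fibrillar genes were likewise split. COL5A1 and COL5A2, chains of the type V collagen that nucleates type I fibrils, differed by 0.39 ± 1.78 and -0.09 ± 1.30. COL5A1 was higher in 7 of 11 carcinomas. COL2A1, the cartilage collagen, was below log2 4 in 8 of 11 carcinomas and 8 of 11 glands but reached 9.35 in 1 carcinoma and 7.39 in 1 gland.

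COL27A1, a fibrillar collagen of developing skeleton, had the widest spread of the members. It read 5.03, 10.11 and 13.36 in the carcinomas and 6.69, 11.98 and 14.19 in the glands. Its difference was -2.29 ± 3.84 (limma adjusted p = 0.108), from -9.16 in dog 4 to 6.20 in dog 14, and this SD was at the 99.6th percentile of all genes tested. The carcinoma was lower in 9 dogs and higher in dogs 13 and 14. The difference was -0.72 ± 3.95 in the 6 dogs with muscle signal in the gland, lower in 4, and -4.17 ± 3.04 in the 5 without it, lower in 5 of 5 and not called (limma adjusted p = 0.0817). Without dog 14 the difference was -3.14 and was called (limma adjusted p = 0.0101), and with all 25 arrays and the dog as a random block it was -2.40 and called (limma adjusted p = 0.0439). Of the other probe sets for COL27A1, 1 gave -2.75 ± 4.67 and a dim one 0.40 ± 1.32. The former was below log2 4 in the carcinomas of dogs 3, 4, 6 and 7 (2.80, 2.20, 3.59 and 2.34). It was also below that level in the gland of dog 14 (3.90).

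**Figure D2:**
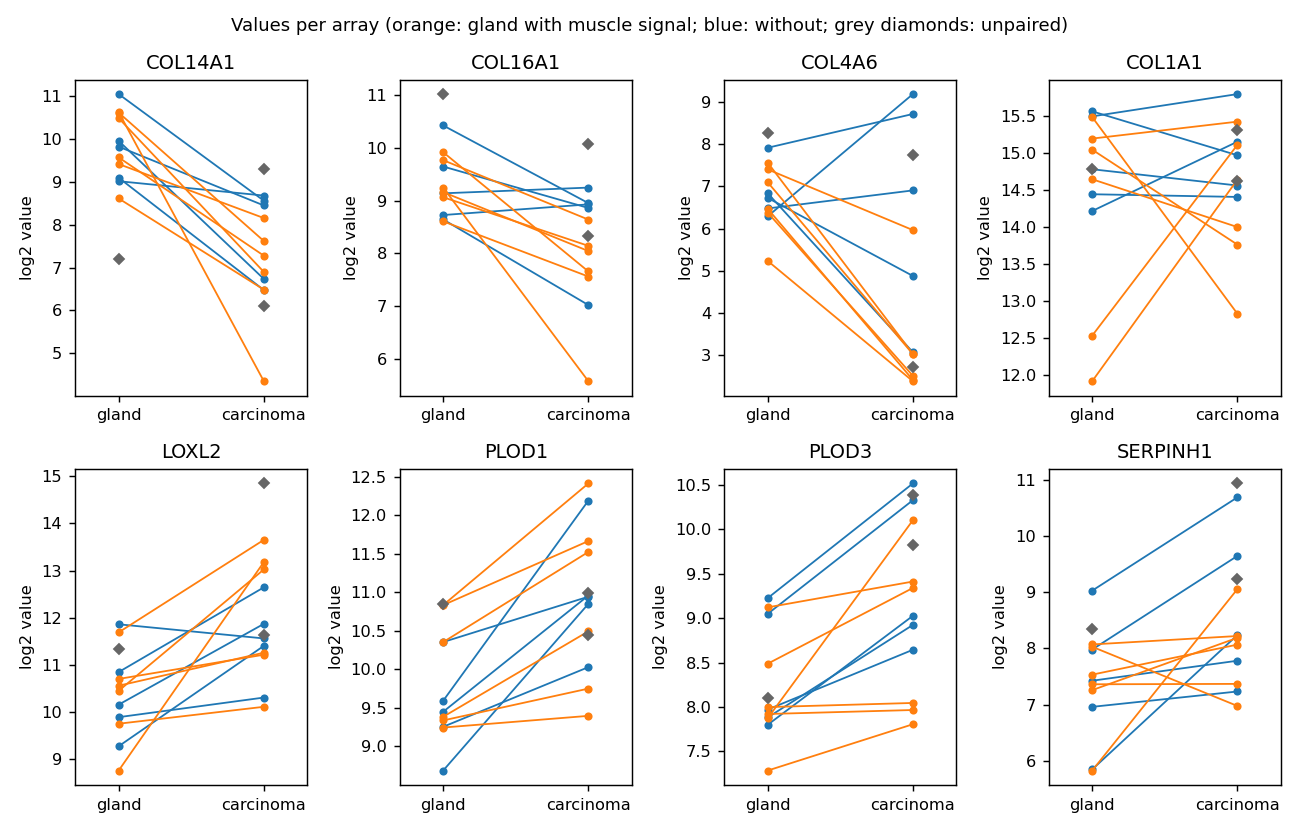
Log2 signal (y axis) in gland and carcinoma of the 11 paired dogs, with 1 line per dog (orange where the gland carried muscle signal, blue where it did not) and grey diamonds for the unpaired samples. The lines for COL14A1 all descend and those for PLOD1 and PLOD3 all ascend, whereas those for COL1A1 run in both directions.

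The paired differences of the fibrillar genes varied together across dogs. Over the 11 paired differences COL1A1 correlated with COL1A2 at r = 0.945 (rho = 0.973), with COL3A1 at r = 0.961 (rho = 0.982) and with COL5A1 at r = 0.929 (rho = 0.973). The permutation p-values of r were 1e-05, 1e-05 and 0.00018, where 1e-05 is the smallest that 100000 permutations can give, and after Benjamini-Hochberg adjustment over 8 pairs of genes they were 2.67e-05, 2.67e-05 and 0.00036. Permutation p for each of these rho values was 1e-05. Without dogs 7 and 10, the 2 farthest from the median for COL1A1, r was 0.869, 0.914 and 0.949. These correlations compare genes measured on the same 22 arrays.

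By the brightest probe set of each gene, the shift between type I and type III collagen was small but shared by most dogs. The log2 ratio of COL1A1 to COL3A1 within an array was 0.79 ± 0.54 higher in the carcinoma, in 10 of 11 dogs (exact two-sided sign-flip permutation test, p = 0.00293, adjusted p = 0.00391 over 4 ratios). A ratio shows that the 2 genes changed unequally and not which of them changed. Its sign in a dog can depend on the probe set. In dog 7 COL3A1 differed by -3.88 and the brightest COL1A1 probe set by -2.66, but the other 2 COL1A1 probe sets by -4.43 and -4.99.

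**Figure D3:**
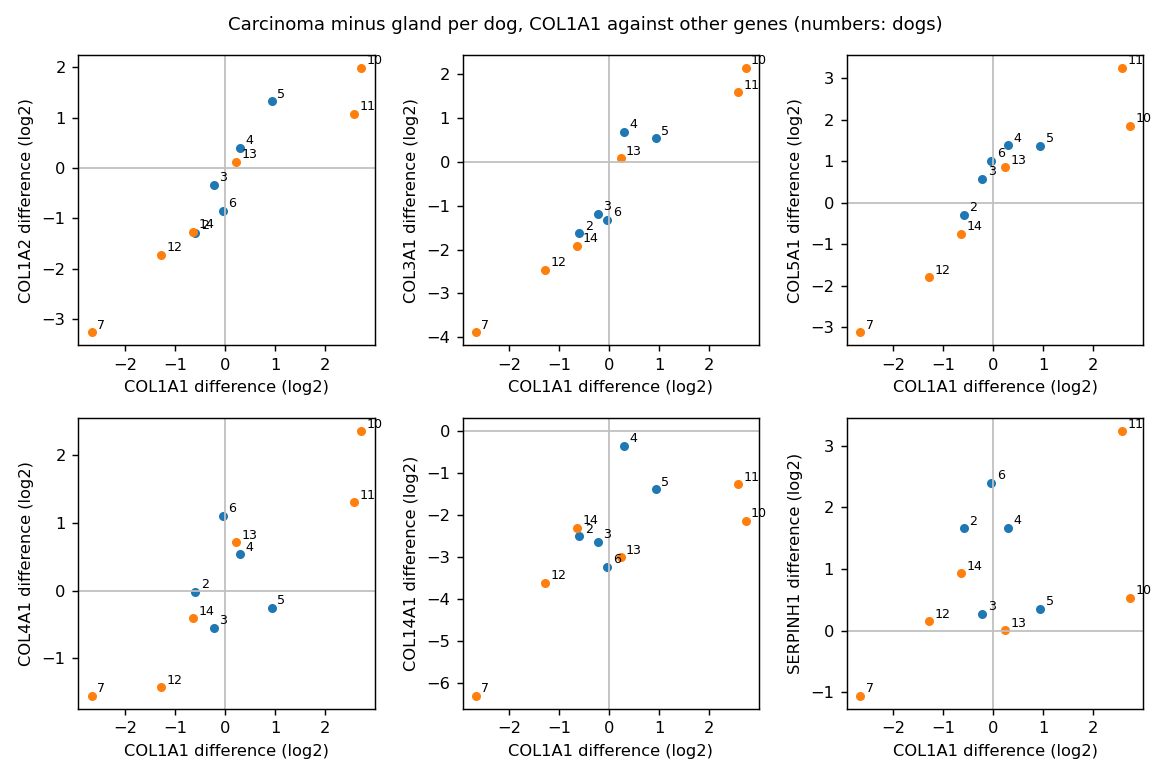
Paired difference (carcinoma minus gland, log2) of COL1A1 on the x axis against that of 6 other genes on the y axes, with 1 numbered point per dog (n = 11; orange where the gland carried muscle signal, blue where it did not). COL1A2, COL3A1 and COL5A1 follow COL1A1 closely, COL4A1 less tightly, COL14A1 lies below 0 in every dog, and SERPINH1 is scattered.

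The probe sets of the fibrillar genes did not all give 1 answer. The 3 bright probe sets of COL3A1 (gland means of 11.98 to 14.35) gave differences of -0.60 to -0.74 and were not called. The 2 dimmer ones (gland means of 6.82 and 6.22) were called lower, at -2.22 ± 1.75 (limma adjusted p = 0.00503, lower in 11 of 11 dogs) and -2.10 ± 1.30 (limma adjusted p = 0.00164, lower in 10). Both read below log2 4 in several carcinomas, down to 2.36 in dog 12 and 2.39 in dog 7 respectively, so the size of these differences is uncertain. When COL3A1 was represented by the mean of its 5 probe sets, which includes the 2 dimmer ones, it was called lower at -1.26 (limma adjusted p = 0.0351). COL1A2 behaved similarly, with 1 dim probe set of 4 (gland mean 7.02) called lower at -1.57 ± 1.50 (limma adjusted p = 0.0137). That probe set was below log2 4 in 4 of 11 carcinomas and 0 of 11 glands. The part of each transcript that these probe sets match was not examined. The 3 probe sets of COL1A1 gave 0.12, 0.00 and 0.08, but the SD over dogs was 1.57 in the brightest of them and 2.63 and 3.05 in the others.

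**Figure D4:**
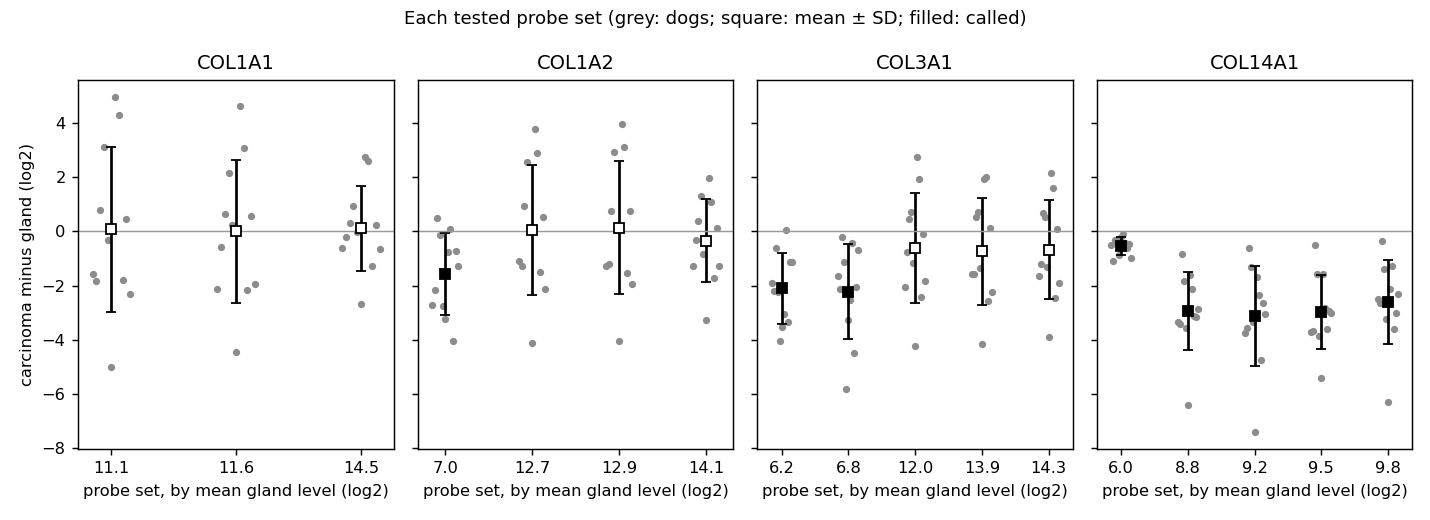
Carcinoma minus gland (log2, y axis) for each tested probe set of COL1A1, COL1A2, COL3A1 and COL14A1, ordered by its mean gland signal (log2, x axis). Grey points are the 11 dogs, squares with bars the mean ± SD, and filled squares the probe sets called; the dim ones of COL1A2 and COL3A1 are filled and lie below the bright ones of the same gene, and all 5 of COL14A1 are filled.

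Of the 58 member probe sets tested, 8 were called higher (13.8%) and 10 lower (17.2%), and 40 were not called. The background was 17.3% higher and 11.1% lower among the 21553 probe sets tested. The 8 higher ones were the 3 of LOXL2, the 3 of PLOD3 and the 2 of PLOD1. The 10 lower ones included the 5 tested probe sets of COL14A1.

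Of the basement membrane collagens 6 of 7 genes were tested, 1 fell and none rose. COL4A1, a chain of the type IV network found under all epithelia and around vessels, read 11.37, 12.83 and 14.09 in the carcinomas and 10.25, 12.65 and 14.11 in the glands. Its difference was 0.16 ± 1.18 (limma adjusted p = 0.726) and became -0.05 without dog 10. COL4A2, which pairs with it in the same trimer, read 10.68, 12.19 and 13.83 against 10.60, 12.49 and 13.81, a difference of -0.22 ± 1.11 (limma adjusted p = 0.612).

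COL4A1 and COL4A2 are immediate neighbours in the RefSeq dog annotation, with 0 protein-coding genes between them. Their paired differences correlated at r = 0.978 and rho = 0.991 over the 11 dogs (permutation p = 1e-05 for each, adjusted p = 2.67e-05 for r), and at r = 0.969 without dogs 7 and 10. COL1A1 and COL4A1, a stromal and a basement membrane gene, correlated at r = 0.864 (permutation p = 0.00077, adjusted p = 0.00123) and rho = 0.836 (permutation p = 0.00238), and at r = 0.700 without those dogs.

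COL4A6, a type IV chain of restricted distribution, fell. It read 2.39, 3.08 and 9.18 in the carcinomas and 5.24, 6.73 and 7.91 in the glands, so 6 of 11 carcinomas were below log2 4 and no gland was, although the highest carcinoma exceeded every paired gland. The difference was -2.03 ± 2.45 (limma adjusted p = 0.0364), a 4.07-fold decrease, with the carcinoma lower in 8 dogs and higher in dogs 2, 4 and 5.

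The COL4A6 call was fragile. It was lost without any 1 of dogs 3, 6, 7, 10, 11, 12, 13 or 14, where the adjusted p reached 0.0789. The difference was -3.46 ± 1.14 in the 6 dogs with muscle signal in the gland, all lower, and -0.30 ± 2.56 in the 5 dogs without it, of which 2 were lower (limma adjusted p = 0.861). COL4A5, its neighbour in the genome with no protein-coding gene between, was not called, at 0.15 ± 1.11. The ratio of COL4A1 to COL4A5 changed by 0.02 ± 1.65 (exact sign-flip permutation test, p = 0.968). COL15A1, a collagen of the basement membrane zone, differed by -0.34 ± 1.37.

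The FACIT collagens held the largest decrease of the members. Of 8 genes 5 were tested, 2 fell and none rose. COL14A1, a collagen that binds the surface of fibrils and limits their lateral growth, read 4.34, 7.28 and 8.68 in the carcinomas and 8.61, 9.83 and 11.06 in the glands. Only the top of the carcinoma range touched the bottom of the gland range. The decrease averaged 2.60 ± 1.55, that is 6.08-fold (difference -2.60, SE 0.42, limma adjusted p = 0.00112), and was seen in all 11 dogs, from -6.29 in dog 7 to -0.34 in dog 4. Of all genes tested, 8.53% were called with the same sign in every dog.

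The other tested probe sets of COL14A1 were each called lower in 11 of 11 dogs, at -0.53, -2.94, -2.97 and -3.13. The unpaired samples did not follow the pairs in full, since COL14A1 read 6.10 and 9.31 in the carcinomas of dogs 1 and 9 and 7.20 in the gland of dog 8, below all paired glands. In dogs with muscle signal in the gland the difference was -3.10 ± 1.75, and in the 5 without it -2.01 ± 1.15, lower in 5 of 5. The call did not hold in those 5 dogs alone (limma adjusted p = 0.0607) or with the muscle level as a covariate (-1.94, limma adjusted p = 0.0742). In the 5 dogs 2.66% of the 21553 probe sets were called, against 28.4% in all 11 pairs.

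COL16A1, another FACIT collagen, also fell. It read 5.57, 8.14 and 9.25 in the carcinomas and 8.61, 9.16 and 10.43 in the glands. The difference was -1.25 ± 1.07, a 2.37-fold decrease (limma adjusted p = 0.00847), lower in 9 of 11 dogs. It was -1.69 ± 1.09 in the dogs with muscle signal in the gland and -0.71 ± 0.86 in those without, where it was not called (limma adjusted p = 0.240), and with the muscle level as a covariate it was -0.58 (limma adjusted p = 0.360).

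COL12A1, the FACIT collagen closest in build to COL14A1, gave -0.06 ± 1.06 (limma adjusted p = 0.895), a value that turned positive under several alternatives, with 0.20 as the highest of these. COL12A1 read 7.53, 10.18 and 11.56 in the carcinomas and 8.58, 9.92 and 11.34 in the glands. The ratio of COL12A1 to COL14A1 was higher in the carcinoma of all 11 dogs, by 2.54 ± 1.27. The exact 2-sided sign-flip permutation test gave p = 0.000977, the smallest that 11 dogs allow (adjusted p = 0.00195). COL14A1 alone fell in all 11 dogs, so this ratio largely restates its decrease and is not separate evidence.

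The ratio of COL1A1 to COL14A1 was higher in the carcinoma of all 11 dogs as well, by 2.72 ± 1.17 (exact 2-sided sign-flip permutation test, adjusted p = 0.00195). It too largely restates the decrease of COL14A1. The differences of COL1A1 and COL14A1 still correlated, at r = 0.716 (permutation p = 0.0148, adjusted p = 0.0198) and rho = 0.745 (permutation p = 0.0115). The relation rested in part on dogs 7 and 11, since the adjusted p rose to 0.180 at most when 1 of them was left out, and r was 0.613 without dogs 7 and 10. COL4A1 and COL14A1 correlated at r = 0.538 and rho = 0.518 and did not pass (permutation p = 0.0859 and 0.108), with r = 0.352 without dogs 7 and 10. COL9A1 and COL21A1, the other FACIT genes tested, differed by 0.44 ± 2.38 and -0.24 ± 2.22.

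The remaining collagens tested were not called. COL6A1 and COL6A3, chains of the beaded filaments that link cells to stroma, differed by -0.89 ± 1.83 and -0.86 ± 1.69, with the carcinoma lower in 7 and 8 of 11 dogs. COL6A1 differed by -1.47 ± 2.09 where the gland carried muscle signal and by -0.20 ± 1.33 where it did not. COL10A1, known from hypertrophic cartilage, differed by 0.41 ± 0.77 and was higher in 8. COL7A1, which forms the anchoring fibrils under stratified epithelia, was dim in most arrays and differed by 0.43 ± 2.04, a value set by 5.60 in dog 11, since without that dog it was -0.09.

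Among the lysyl oxidases LOXL2 rose. LOXL2 cross-links collagen, including the type IV collagen of basement membranes. It read 10.11, 11.56 and 13.65 in the carcinomas and 8.76, 10.45 and 11.86 in the glands. The difference was 1.48 ± 1.33, or 2.79-fold (SE 0.36, limma adjusted p = 0.00947), higher in 10 of 11 dogs, from -0.30 in dog 2 to 4.42 in dog 10. Its 3 tested probe sets were each called, at 1.48, 1.72 and 2.06. In the 6 dogs whose glands carried the muscle signal LOXL2 differed by 1.76 ± 1.58. In the 5 whose glands lacked it LOXL2 differed by 1.15 ± 1.04 and was not called (limma adjusted p = 0.130), nor was it with the muscle level as a covariate (1.19, limma adjusted p = 0.198).

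LOX, the founding member of the family, was not tested because it exceeded log2 4 in too few arrays. Over the paired arrays it read 2.18, 2.80 and 6.60 in the carcinomas and 2.13, 2.20 and 4.12 in the glands. The carcinomas of dogs 9, 11 and 12 were above log2 4, at 7.15, 6.60 and 5.26, and so was the gland of dog 2. LOXL3 and LOXL4 differed by 0.52 ± 2.10 and 0.20 ± 1.35 and were not called. With muscle signal in the gland LOXL3 differed by -0.12 ± 1.98, and without it by 1.29 ± 2.19. LOXL4 turned to -0.14 without dog 13, whose difference was 3.51.

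Both lysyl hydroxylase genes with a probe set of their own, PLOD1 and PLOD3, rose, while PLOD2 had none. By their brightest probe sets PLOD1 and PLOD3 were higher in every carcinoma than in its paired gland. Another probe set of PLOD3 gave -0.04 in dog 7. Of all genes tested, 8.53% were called with the same sign in every dog. PLOD1, which hydroxylates lysines in the triple helix, read 9.40, 10.94 and 12.41 in the carcinomas and 8.69, 9.45 and 10.83 in the glands. The difference was 1.17 ± 0.74, or 2.25-fold (SE 0.21, limma adjusted p = 0.00210), from 0.15 to 2.59. PLOD3, which also attaches sugars to hydroxylysine, read 7.81, 9.03 and 10.51 against 7.29, 7.97 and 9.22. Its difference was 0.86 ± 0.65, or 1.82-fold (SE 0.19, limma adjusted p = 0.00611), from 0.04 to 2.23.

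The mean differences of the lysyl hydroxylases were no smaller in the 5 dogs whose glands lacked the muscle signal. There PLOD1 differed by 1.53 ± 0.86 (limma adjusted p = 0.0623) and PLOD3 by 1.10 ± 0.26 (limma adjusted p = 0.0414). In the 6 dogs whose glands carried it PLOD1 differed by 0.87 ± 0.52 and PLOD3 by 0.66 ± 0.82. With the muscle level as a covariate both were called, PLOD1 at 1.60 (limma adjusted p = 0.0171) and PLOD3 at 1.10 (limma adjusted p = 0.0474). Without the dog as a block PLOD3 was not called (limma adjusted p = 0.0614).

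SERPINH1, the collagen chaperone, read 6.98, 8.19 and 10.69 in the carcinomas and 5.83, 7.42 and 9.03 in the glands. It was higher in 10 of 11 carcinomas, by 0.92 ± 1.22, and missed the threshold (limma adjusted p = 0.0560). Dog 7 was the exception at -1.05, and without dog 7 SERPINH1 was called at 1.12 (limma adjusted p = 0.0241). It was also called with all 25 arrays (1.07, limma adjusted p = 0.0301). SERPINH1 differed by 0.63 ± 1.44 where the gland carried muscle signal, and by 1.27 ± 0.92 in the other 5 dogs, in which it was not called (limma adjusted p = 0.0995). SERPINH1 and COL1A1 correlated over dogs at r = 0.539 and rho = 0.464 and did not pass (permutation p = 0.0858 and 0.155), with r = 0.571 without dogs 7 and 10. Without dog 10 alone the correlation passed, at r = 0.721.

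Dogs differed in how the collagens moved as a group. In dog 7 the carcinoma was lower for 20 of 22 collagens, with a median difference of -2.68, and 17 of the 28 member genes had their lowest carcinoma signal there, beside 8.99% of all genes. In dogs 12, 14 and 3 it was lower for 18 of 22, with medians of -1.48, -0.85 and -0.54. Dogs 4, 5, 10 and 11 went the other way, with 16, 14, 13 and 14 of 22 collagens higher and medians of 0.41, 0.50, 0.41 and 0.68. The median over all genes tested lay between -0.00442 and 0.15 in each dog.

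The fibroblast marker list followed these dogs in part. In dogs 7 and 12 the mean of the 12 markers differed by -3.14 and -2.72, and in dogs 4, 5, 10 and 11 by 0.34, 0.24, -0.18 and 0.18. In dogs 14 and 3, with 18 of 22 collagens lower, it differed by only -0.33 and -0.16. In dog 13 it differed by -1.79 beside a collagen median of -0.02, and in dogs 2 and 6 by -1.46 in each beside medians of -0.23 and -0.37. Over all pairs this list read 8.78 to 11.85 in the carcinomas and 10.29 to 12.48 in the glands, a difference of -0.95 ± 1.23, lower in 8 dogs. Its part in the collagen differences was not tested.

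**Figure D5:**
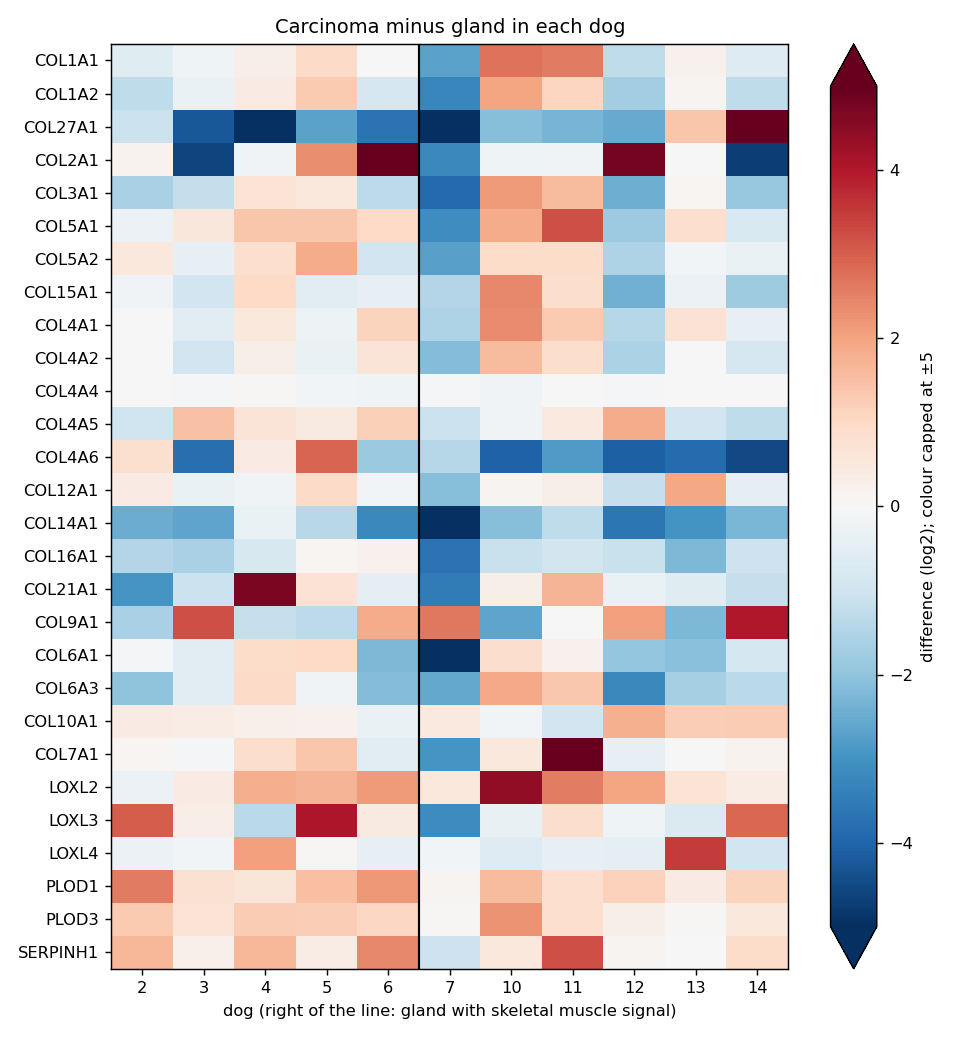
Paired difference (carcinoma minus gland, log2; red higher, blue lower, colour capped at 5 in size) of each tested member gene (vertical axis) in each of the 11 dogs (horizontal axis), with the dogs whose gland carried muscle signal to the right of the line. The column of dog 7 is blue for 20 of the 22 collagens, dogs 10 and 11 are red for COL1A1, COL1A2, COL3A1, COL5A1 and COL5A2, and PLOD1 and PLOD3 are above 0 in every dog.

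Several marker lists of other cell types of the gland had a lower mean in the carcinomas, though not every marker in them was called. Of all genes tested, 11.1% were called lower. The list for pericytes and smooth muscle read 7.85 to 10.85 in the carcinomas and 10.88 to 12.70 in the glands, a difference of -2.02 ± 0.55, and all 6 tested markers fell. Of the 12 fibroblast markers 4 fell, DPT (-3.35) and CXCL12 (-2.80) the most, none rose, and the others were not called. The endothelial list differed by -1.94 ± 0.84 with 5 of 6 markers lower, and the adipocyte list by -1.79 ± 0.84 with 2 of 3 lower. Of the basal and myoepithelial list 1 marker was tested, KRT17, which fell by 3.87. The luminal list differed by -1.06 ± 0.88 with 1 of 5 markers lower, GATA3. Macrophage markers (0 of 6) and the single cartilage marker tested, SOX9, were not called. The macrophage list differed by 0.47 ± 1.37 and SOX9 by 0.18 ± 1.45. The part of these cells in the results above was not tested.

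Among the other genes of collagen synthesis several rose. Of 16 tested prolyl hydroxylases, folding factors, glycosyltransferases and export factors 7 rose and none fell, with a median difference of 0.30. Among all genes tested 18.4% were called higher and 11.1% lower, and 8.53% were called with the same sign in every dog. P4HA1, the catalytic subunit that hydroxylates proline and so stabilises the triple helix, rose by 1.91 ± 0.61 in 11 of 11 dogs (limma adjusted p = 6.4e-05). FKBP10, a folding factor of the endoplasmic reticulum that acts on procollagen, rose by 1.46 ± 1.29 in 10 (limma adjusted p = 0.00938). Several of these proteins also serve clients other than collagen.

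Among genes that act outside the cell or at its surface few were called, beside the 18.4% higher and 11.1% lower of all genes. None of the 4 tested procollagen proteinases and enhancers was called, and their median difference was -0.34. Of 6 collagen receptors and uptake genes 1 fell, the receptor tyrosine kinase DDR2 (-1.15 ± 1.25, limma adjusted p = 0.0263). Of 5 genes of the TGF-beta response 1 fell, the ligand TGFB3 (-1.30 ± 0.76, limma adjusted p = 0.00164, lower in 11 of 11 dogs). A call with the same sign in every dog was made for 8.53% of all genes tested.

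Within the carcinomas no member probe set was called against tumour size or survival. Tumour size ran from 0.5 to 5 cm over 13 carcinomas. By limma 0 of 58 member probe sets and 0% of all 21434 tested were called, and at an unadjusted p below 0.05 there were 2 members (3.45%) against 9.45% of all. Those 2 belong to LOXL3 (0.86 log2 per cm, limma adjusted p = 0.475) and COL12A1 (0.64 log2 per cm, limma adjusted p = 0.510). The slope was positive for 44 of the 58, beside 47.9% of all probe sets, but probe sets of collagen genes move together and are not independent. For survival, 1 to 9 months in 12 dogs, 0 of 58 and 0% of all 21261 were called, and none of the 58 had an unadjusted p below 0.05, beside 2.46% of all. The survival slope was positive for 13 of the 58, beside 52% of all probe sets.

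Of the 43 genes 15 were not tested, and 10 of these were below log2 4 in every array. They included the transmembrane collagen COL17A1, a hemidesmosome protein, and COL8A2, COL19A1 and COL24A1. The other untested genes were bright in a few arrays. COL4A3 reached 7.61 and exceeded log2 4 in the carcinomas of dogs 1, 4 and 5, COL5A3 reached 5.20 in glands, COL11A2 reached 6.02 in the carcinoma of dog 10 and COL13A1 6.07 in that of dog 5. A gene below log2 4 was not detectable above the dim level of its probe sets, which does not show that it was absent.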

How the data were processed

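RNA of 13 carcinomas and 12 glands had been hybridised to single-colour Affymetrix canine arrays. The authors deposited 1 table of normalised log2 signals per probe set; the submitters' processing notes name Partek, GCRMA and RMA, without saying how they were combined. The log2 scale was inferred from the range of the values (0.86 to 16.66), and the number of arrays limits precision. Gene names came from the platform annotation, and 106 of the 111 member probe sets carried a symbol matched to RefSeq (assembly UU_Cfam_GSD_1.0, names and neighbours only). The members, all gene lists and the pairs of genes for ratios were chosen with earlier results of these data known.

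From the deposited values, 111 control probe sets were left out, and probe sets brighter than log2 4 in 6 or more of the 22 arrays of the pairs were fitted with limma 3.58.1 (R 4.3.3) with the dog as a block and an intensity trend in eBayes. P-values were adjusted over all 21553 probe sets, with a threshold of 0.05. A gene was represented by the brightest of its tested probe sets, by mean signal in the 25 arrays. The pairs are tumour and gland of 1 dog, per the labels. Deviations from the group means correlated at 0.12 to 0.46 within each of the 11 dogs, against a median of -0.06 between dogs. The sample of the same dog was the best match in only 5 of the 11 dogs. Tumour size and survival slopes were fitted over the carcinomas. Ratios were tested by exact sign flips and correlations by 100000 permutations (scipy 1.17.1). On simulated data of 21553 probe sets the paired fit recovered 68% of 100 changes of 1 log2 and 86% of 100 changes of 2 log2, with 7 false calls. The simulated probe sets were independent and the changes fell on probe sets of any gene. The collagens spread more between dogs (median SD 1.56, against 0.66 for all genes), so these shares do not carry over to them. No 2 arrays were identical.

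Per-array values are given for every called member gene and, whatever their call, for COL1A1, COL1A2, COL3A1, COL4A1, COL4A2, LOX and SERPINH1. Of the other lists, up to 2 called genes with the largest change in each direction are named. Alternatives covered the block, the 25 arrays, the filter, scaling, the trend, muscle and actin covariates, the choice of probe set and leaving out each dog.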

Additional observations from a re-analysis of the deposited data

How the results depend on the processing

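Settings that address muscle signal in the gland moved the member counts most. With the skeletal muscle level as a covariate 4 member probe sets were called higher and 3 lower, and 0 genes lower. In the 5 dogs without that signal 3 probe sets were higher and 1 lower, and 1 gene higher and 0 lower, on fewer dogs. Calls over all 21553 probe sets also fell in those 5 dogs, to 2.66% from 28.4% in all 11 pairs. The share over all probe sets is not given here for the covariate or for no replicate block. With no replicate block 6 probe sets were higher and 9 lower and 2 genes each way, PLOD3 (0.0614) and COL4A6 (0.0560) being lost. COL4A6 was also lost with no filter on low values (adjusted p = 0.0832) and with the actin 3' to 5' covariate (-1.65, adjusted p = 0.136), and SERPINH1 was called with that covariate (1.19, adjusted p = 0.0381).

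Leaving out each dog gave 8 to 9 probe sets higher and 9 to 11 lower, 3 to 4 genes higher and 2 to 3 lower, and 0 size or survival calls. The shares over all probe sets are not given here for these settings either, so the steadiness of the counts cannot be read as particular to the members. Differences that changed sign ranged from -0.26 to 0.15 for COL12A1, -0.14 to 0.40 for COL1A1, -0.73 to 0.0876 for COL21A1, -0.58 to 0.50 for COL2A1, -0.0545 to 0.34 for COL4A1, -0.0228 to 0.29 for COL4A5, -0.29 to 0.17 for COL5A2, -0.0883 to 0.77 for COL7A1, -0.14 to 0.31 for LOXL4 and -0.23 to 0.35 for the ratio of COL4A1 to COL4A5. The correlation of COL1A1 with COL14A1 ranged from 0.506 to 0.799, failing without dog 7 or 11, and that with SERPINH1 from 0.319 to 0.721, passing without dog 10.

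Genes that were not called changed sign as follows. With all 25 arrays the values were 0.20 for COL12A1, 0.26 for COL21A1, -0.49 for COL2A1 and 0.0913 for COL5A2. With the muscle covariate they were 0.16 for COL12A1, 0.25 for COL21A1 and 0.38 for COL5A2. In the dogs without muscle signal they were 0.14, 0.20 and 0.38 for the same genes. With the actin covariate they were 0.0543 for COL12A1, 0.0738 for COL4A2 and -0.32 for COL9A1, after quantile normalisation -0.0273 for COL2A1, and with the mean of probe sets 0.0625 for COL12A1. The ratio of COL4A1 to COL4A5 was -0.0231 with the mean of probe sets, and the correlation of COL4A1 with COL14A1 then passed at 0.621 (adjusted permutation p = 0.0463). The cause was not tested.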

Other observations

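The 3 unpaired samples entered the tests of all 25 arrays and, for the carcinomas, the slopes. The carcinoma of dog 9 exceeded the highest of the 11 paired carcinomas in 15 of the 28 member genes, beside 9.74% of all genes tested. COL1A2 was 16.12 there, COL12A1 13.29, LOXL2 14.85 and LOX 7.15, and the fibroblast marker list read 12.34, above the 11.85 of the highest paired carcinoma. The carcinoma of dog 1 exceeded the paired range in 2 of the 28. The gland of dog 8 lay above the paired glands in 6 of the 28 and below them in 6, beside 18.4% and 9.71% of all genes, with COL16A1 at 11.02, COL2A1 at 9.10 and a fibroblast list of 9.09, below the 10.29 of the lowest paired gland.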
